A study of Mus musculus with 4 samples.

Results

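Chemokines and their receptors were described in spleens of female mice lacking Nrf2, a transcription factor that induces genes of antioxidant defence. They were taken as every probe set, other than array controls, whose only gene symbol in the platform annotation is that of a chemokine (Ccl, Cxcl, Xcl1, Cx3cl1) or of a chemokine receptor (Ccr, Cxcr, Cx3cr1). This rule gave 43 probe sets for 38 genes, of 12422 probe sets and 8251 named genes in all: 29 probe sets of 24 chemokine genes and 14 probe sets of 14 receptor genes. The genotypes compared were nrf2 -/- (KO, 2 arrays) and nrf2 +/+ littermates (WT, 2 arrays), all female and 5 months old, from interbred heterozygotes. The parents were Nrf2 wild type in a C57B6/SJL background and Nrf2 knockout in a C57B6/129SVJ background, so strain alleles could segregate among the offspring. By the labels, the age precedes severe autoimmune disease. Total RNA of the spleen was measured with no stated treatment. Whether an array holds 1 animal or a pool is not given, so a p-value here covers the spread between arrays alone, and that spread may be technical. Precision is limited by the number of arrays.

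Chemokines are small secreted proteins that draw leukocytes along a gradient by binding receptors coupled to G proteins. In the spleen, Cxcl13 made by stromal cells of the follicles attracts B cells through Cxcr5, ligands of Ccr7 hold T cells in their zone, and Cxcl12 retains Cxcr4-bearing cells. Inflammatory chemokines such as Ccl2, Ccl3 and Ccl4 are made by activated myeloid cells and recruit monocytes through Ccr2 or other cells through Ccr1. In whole-tissue RNA, fewer cells of a type and less RNA per cell cannot be told apart.

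To show whether the members carry the sequence that Nrf2 binds, the promoter windows of the 3 members that hold its core letters are printed here, with that of Cxcl12, the member with the lowest p. Each window runs from 250 bases before to 50 bases after the gene start in RefSeq (GRCm38.p6), 5′ to 3′ on the gene's strand. Capitals mark the antioxidant response element core TGACNNNGC and the kappaB pattern (GGG, then NNNNN, then CC), searched on both strands, with N for any base. The windows are chr5:92348840-92349139 (minus strand) for Cxcl10, chr5:95956689-95956988 (plus strand) for Cxcl13, chr9:124021721-124022020 (plus strand) for Ccr3 and chr6:117168285-117168584 (plus strand) for Cxcl12.
Cxcl10: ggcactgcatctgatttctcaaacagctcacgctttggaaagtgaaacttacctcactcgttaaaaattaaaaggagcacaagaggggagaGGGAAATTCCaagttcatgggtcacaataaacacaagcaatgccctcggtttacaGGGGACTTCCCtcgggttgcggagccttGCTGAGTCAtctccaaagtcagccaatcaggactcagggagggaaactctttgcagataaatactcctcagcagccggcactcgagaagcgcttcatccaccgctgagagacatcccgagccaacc
Cxcl13: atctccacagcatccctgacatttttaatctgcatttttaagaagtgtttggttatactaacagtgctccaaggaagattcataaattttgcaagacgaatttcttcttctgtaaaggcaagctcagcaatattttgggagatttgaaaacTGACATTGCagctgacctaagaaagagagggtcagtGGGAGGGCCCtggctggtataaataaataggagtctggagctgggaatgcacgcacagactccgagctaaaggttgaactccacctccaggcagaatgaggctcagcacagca
Ccr3: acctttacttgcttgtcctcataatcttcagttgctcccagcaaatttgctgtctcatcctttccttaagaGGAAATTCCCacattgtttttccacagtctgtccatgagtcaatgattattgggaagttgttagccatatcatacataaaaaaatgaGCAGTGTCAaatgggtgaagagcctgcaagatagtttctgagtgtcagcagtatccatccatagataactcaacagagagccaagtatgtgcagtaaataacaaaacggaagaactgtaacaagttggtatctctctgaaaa
Cxcl12: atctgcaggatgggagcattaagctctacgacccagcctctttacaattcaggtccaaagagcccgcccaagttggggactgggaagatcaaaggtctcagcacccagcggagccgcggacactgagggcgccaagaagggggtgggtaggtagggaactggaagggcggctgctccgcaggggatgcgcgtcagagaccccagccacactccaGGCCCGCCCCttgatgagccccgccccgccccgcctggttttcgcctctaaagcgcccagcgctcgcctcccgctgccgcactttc

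Counting the base before the start as -1, the core began at -76 in Cxcl10 (minus strand of the window), at -99 in Cxcl13 (plus strand) and at -92 in Ccr3 (minus strand). It did not overlap a kappaB match in any of the 3 windows, while several kappaB matches overlapped each other. Of the 38 member genes, 30 had a window in the table, 32 windows in all. The core was found in 3 of these 32 windows (9.38%), against 12.4% of all 32851 windows counted, which leave out chromosome 18. The kappaB pattern was found in 18 of the 32 (56.2%), against 50.8% of all windows counted. Such matches are descriptions of letters and not of binding.

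The targeted gene was read first. Nfe2l2, which encodes Nrf2, read 202 and 178.6 in KO spleen, against 3537 and 6321 in WT spleen (log2 difference KO minus WT -4.61, SE 0.47, limma adjusted p = 0.0199). Whether its probe set lies in the deleted stretch is not stated. Lymphoid and red cell markers were read beside the tissue label. All 9 measured B cell, 10 T cell and 9 erythroid markers were above the floor in all 4 arrays. So were 64.9% of all probe sets, and the marker count cannot settle the label. Exocrine pancreas markers were also present, with sums of 9921 and 11041 in KO spleen, against 82613 and 21977 in WT spleen. WT replicate 1 stood apart, with a Pearson r across tested probe sets of 0.849 to 0.851 against the other arrays, which correlated with each other at 0.938 to 0.947. In 15.4% of tested probe sets its value was over 2-fold above or below all other arrays, against at most 1.84% for any other array. Its ratio of 3′ to 5′ Gapdh control signal, a sign of RNA or labelling quality, was 88.3, against 25.5 and 34.8 in KO replicates 1 and 2 and 8.07 in WT replicate 2, while the beta-actin ratio was 19.3 and 16.1 in the KO arrays, against 14.4 and 8.86 in the WT arrays.

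The first question was which members are above background in spleen. As the files hold no detection calls, a floor on intensity stood for background, the 25th percentile of all values pooled, an intensity of 185.5. Of the 43 probe sets, 25 (58.1%) were above this floor in all 4 arrays, against 64.9% of all 12422 probe sets. They comprised 16 of 29 chemokine and 9 of 14 receptor probe sets. Only 1 receptor probe set, that of Ccr4, a receptor of regulatory and type 2 helper T cells, was below it in all 4 arrays, at 108.6 and 134.7 in KO spleen, against 143.9 and 92.3 in WT spleen. The remaining 17 were above it in some arrays. With the level set at the 10th percentile, an intensity of 52.4, 41 of 43 were above it in all arrays.

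The neutrophil-attracting CXC chemokines lay near the floor in both genotypes. Cxcl2 read 292.6 and 137.6 in KO spleen, against 372.8 and 126.1 in WT spleen. For Cxcl1, 1 probe set read 125.7 and 232.8 in KO spleen, against 156.5 and 186 in WT spleen, and the other read 204.3 and 78.2, against 254.8 and 169.1. Cxcl5 read 232.1 and 540.9 in KO spleen, against 77.2 and 329.6 in WT spleen. The genotypes overlapped in all 4 of these probe sets. Cxcr2, the receptor of these ligands on neutrophils, read 357.3 and 183.4 in KO spleen, against 343.2 and 197.8 in WT spleen, again with overlap. Neutrophil markers were bright in the same RNA: 12 of 14, leaving out Cxcr2, were above the floor in all 4 arrays, 11 of 12 tested measured higher in KO spleen (median 1.13), and their summed intensity was 504188 and 568883 in KO spleen, against 709796 and 175276 in WT spleen.

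Ccl25, a chemokine of thymus and gut, and its receptor Ccr9 were above the floor in at most 1 array of a genotype. Ccl25 read 274.5 and 77.2 in KO spleen, against 89.8 and 201.7 in WT spleen. Ccr9 read 230.2 and 85.9 in KO spleen, against 135.4 and 140.8 in WT spleen. Ccl17, a ligand of Ccr4, read 365.3 and 89.5 in KO spleen, against 87.6 and 241.5 in WT spleen. The genotypes overlapped in each of the 3. The monocyte attractant Ccl7 read 153.9 and 13.2 in KO spleen, against 314.5 and 90.3 in WT spleen. The eosinophil attractant Ccl11 read 201.8 and 36.5 in KO spleen, against 54.4 and 335 in WT spleen. Both overlapped between genotypes. Ccr8, a receptor of type 2 helper and regulatory T cells, read 105.7 and 318.3 in KO spleen, against 517.1 and 79.7 in WT spleen, and Ccr1l1, a gene related to Ccr1, read 274.1 and 174.2, against 159.2 and 277.6. Cxcl14 was above the floor in all 4 arrays but too dim on average to test, at 974.2 and 224.5 in KO spleen, against 517.8 and 245.7 in WT spleen.

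**Figure D1:**
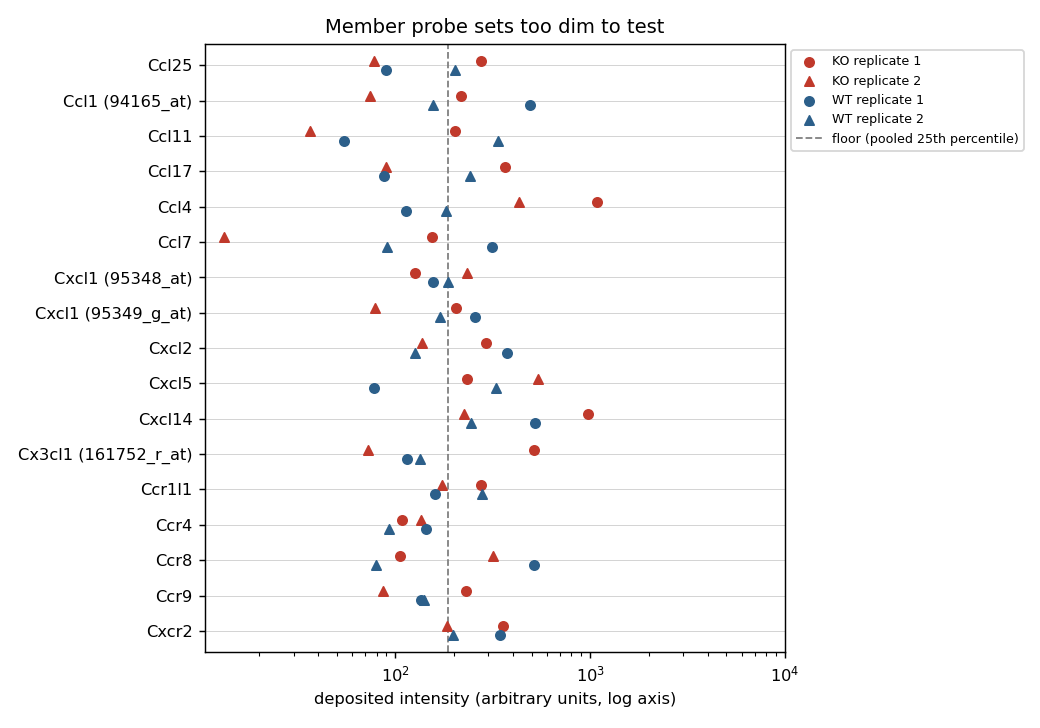
Deposited intensity (log axis) of the 17 member probe sets too dim to test, with KO arrays in red above WT arrays in blue, circles for replicate 1, triangles for replicate 2 and a dashed line at the floor of 185.5. Values run from 13.2 to 1081.7, and only for Ccl4 are both KO values above and both WT values below the line.

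The difference between genotypes was tested where the mean log2 value exceeded the 40th percentile of such means, which kept 26 member probe sets of 24 genes. Values below the floor were raised to it before log2, so differences of dim genes are understated. None of the 26 passed an adjusted p of 0.05 in limma (Benjamini-Hochberg over the whole tested table). Of the 7453 probe sets tested, 4 did (0.0537%). Among the 26, none had an unadjusted p under 0.05, against 1.74% of all tested. The lowest unadjusted p among them was 0.0759 and the lowest adjusted p was 0.992. The standard errors ran from 0.40 to 0.84 on the log2 scale, and the 95% confidence intervals of all 26 include 0. By direction, 19 measured higher and 7 lower in KO spleen (73.1% higher, against 53.7% of all tested), with a median difference of 0.36 on the log2 scale, against 0.04 over all tested. Every KO value exceeded every WT value for 8 (30.8%, against 14.3% of all tested), and every KO value was below every WT value for 2 (7.69%, against 12.2%). The probe sets of Cxcl12 were counted singly in these counts. The filter used the mean of all 4 arrays, so a probe set could pass through high values in 1 genotype alone. Without the filter, 27 of 43 members measured higher (62.8%, against 44.7% of all 12422). Every KO value then exceeded every WT value for 9 (20.9%, against 11.6%) and was below for 2 (4.65%, against 9.68%). WT replicate 1 was the lowest array for each of the 8 tested members with higher KO values. Without WT replicate 1, 15 of 25 measured higher (60.0%, against 50.8% of all tested) with a median of 0.16, and all tested probe sets had a median of 0.0054. With only 3 arrays such separation is commoner over all probe sets. Without WT replicate 1, 8 of 25 members lay wholly above WT (32%, against 31.9% of all tested) and 6 wholly below (24%, against 29.2%). Without KO replicate 1, 8 of 23 lay wholly above (34.8%, against 29.5%) and 8 wholly below (34.8%, against 25.9%). Without KO replicate 2, 15 of 25 members lay wholly above WT (60.0%, against 27.8% of all tested) and 5 wholly below (20.0%, against 25.8%). Without WT replicate 2, 14 of 27 lay wholly above (51.9%, against 42.4%) and 5 wholly below (18.5%, against 40.5%). In that fit 7 of 27 members had an unadjusted p under 0.05 in limma (25.9%), near the 29.3% of all tested, and the lowest adjusted p among them was 0.0582.

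**Figure D2:**
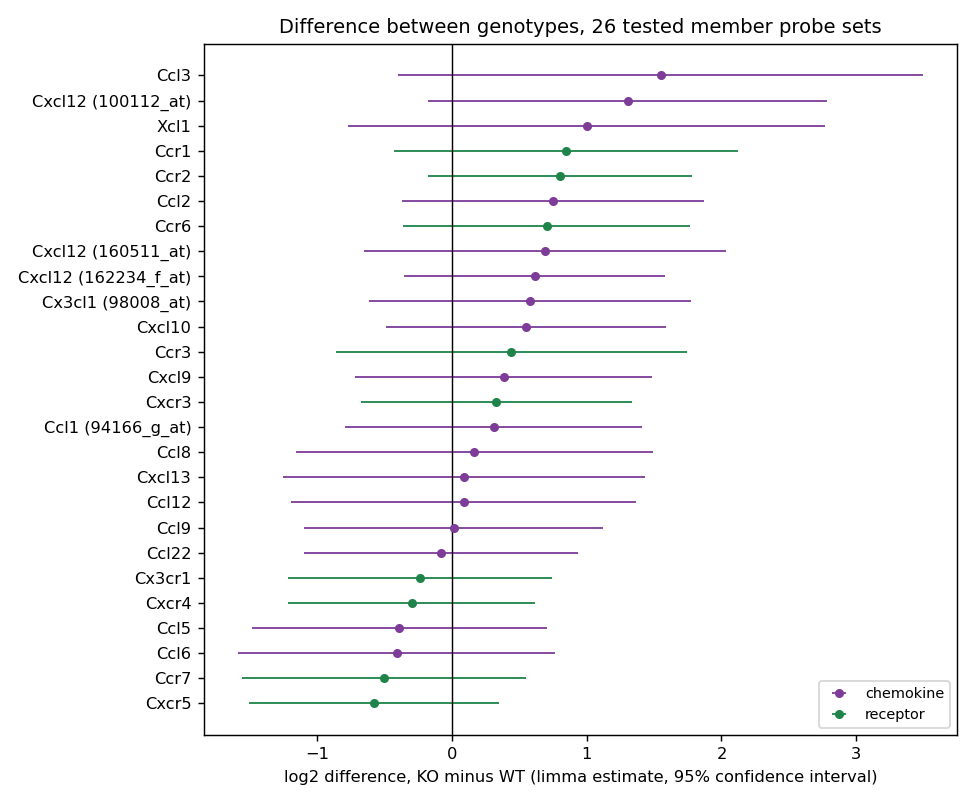
Log2 difference, KO minus WT, for the 26 tested member probe sets, as limma estimates (points) with 95% confidence intervals (lines), chemokines in purple and receptors in green. The estimates run from -0.58 for Cxcr5 to 1.55 for Ccl3, and each interval crosses 0.

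Among homeostatic chemokines, Cxcl12, the ligand of Cxcr4 that retains blood-forming and plasma cells in their niches, was measured by 3 probe sets. The first read 7016 and 7044 in KO spleen, against 1408 and 5760 in WT spleen. Both KO values lay above both WT values, and WT replicate 1 was far below the other 3 arrays. The difference was 1.30 (SE 0.64, 95% confidence interval -0.17 to 2.78, adjusted p = 0.992), a 2.47-fold higher mean. Set against WT replicate 2 alone it was 0.29, and against WT replicate 1 alone 2.32. The second read 8321 and 11267 in KO spleen, against 3375 and 10647 in WT spleen, so that the genotypes overlapped (log2 0.69, SE 0.58, adjusted p = 0.992). Without WT replicate 1 its sign turned, to -0.14. The third, whose name marks possible cross-hybridisation, read 1922 and 2723 in KO spleen, against 1280 and 1743 in WT spleen, without overlap (log2 0.61, SE 0.42, adjusted p = 0.992). It was 0.39 without WT replicate 1.

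Cxcr4 measured in the other direction, with values that barely separated. It read 1588 and 1781 in KO spleen, against 1800 and 2364 in WT spleen (log2 -0.29, SE 0.40, interval -1.21 to 0.62, adjusted p = 0.992). It was -0.49 without WT replicate 1 and -0.0981 without WT replicate 2. Cxcl13, the B cell attractant of the follicles, read 6557 and 7157 in KO spleen, against 3544 and 11669 in WT spleen. The KO pair lay between the WT values, which were 3.29-fold apart, and the estimate was 0.09 (SE 0.58). It was -0.77 without WT replicate 1 and 0.95 without WT replicate 2. Cxcr5, the receptor that takes B cells and follicular helper T cells into follicles, read 3379 and 2491 in KO spleen, against 4784 and 3911 in WT spleen. Both KO values were below both WT values (log2 -0.58, SE 0.40, interval -1.51 to 0.35, adjusted p = 0.992), and the estimate was -0.80 without KO replicate 1 and -0.36 without KO replicate 2. Ccr7, which guides T cells and dendritic cells into the T cell zone, read 1169 and 860 in KO spleen, against 1096 and 1838 in WT spleen (log2 -0.50, SE 0.46), with overlap. Its estimate was -0.87 without WT replicate 1 and -0.13 without WT replicate 2.

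These lymphoid receptors were read beside the markers of the cells that carry them. B cell markers measured lower in KO spleen in 8 of 9 tested genes (median -0.49), with a summed intensity of 171462 and 147819 in KO spleen, against 322638 and 173092 in WT spleen. T cell markers measured lower in 9 of 10 (median -0.36), with sums of 47152 and 37607 in KO spleen, against 91477 and 48768 in WT spleen. None of these markers passed the adjusted threshold, and their part in the values of Cxcr5, Ccr7 and Cxcr4 was not tested. General stromal and endothelial markers, read beside Cxcl12 and Cxcl13, measured higher in 3 and lower in 3 of 6 tested genes. The sums over this list were 26932 and 27009 in KO spleen, against 29793 and 31179 in WT spleen.

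Ccr6, a receptor of B cells and dendritic cells, read 1912 and 1377 in KO spleen, against 753 and 1317 in WT spleen, without overlap but with KO replicate 2 and WT replicate 2 close together (log2 0.70, SE 0.46, interval -0.36 to 1.77). Its estimate was 0.30 without WT replicate 1.

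Of the inflammatory CC chemokines, Ccl2, which recruits monocytes, had close replicates in both genotypes. It read 708 and 693.4 in KO spleen, against 411.1 and 420.5 in WT spleen. The pairs were 1.02-fold apart within each genotype and the genotypes 1.69-fold (log2 0.75, SE 0.48, interval -0.37 to 1.87, adjusted p = 0.992). Leaving out any 1 array gave 0.74 to 0.77. With the floor at the 40th percentile, an intensity of 478.6 that exceeds both WT values, the difference was 0.55. The standard error borrows spread from probe sets of like intensity, and so is far wider than the gap within these pairs. Its receptor Ccr2, on inflammatory monocytes, read 4310 and 3169 in KO spleen, against 1711 and 2618 in WT spleen. All KO values were above all WT values (log2 0.80, SE 0.42, interval -0.17 to 1.78, limma adjusted p = 0.992), and the estimate was 0.50 without WT replicate 1. Monocyte and macrophage markers measured higher in 6 and lower in 3 of 9 tested genes (median 0.30), with sums of 217985 and 210933 in KO spleen, against 146850 and 200708 in WT spleen, and their part in Ccr2 was not tested.

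Ccl3 and Ccl4, kin that macrophages and lymphocytes secrete on activation, each had an unequal KO pair, with replicate 1 above replicate 2. Ccl3 read 1859 and 344.4 in KO spleen, against 152 and 403.3 in WT spleen. Only KO replicate 1 was high, KO replicate 2 lay below WT replicate 2, and WT replicate 1 was under the floor (log2 1.55, SE 0.84, interval -0.40 to 3.50, a 2.93-fold higher mean). Without KO replicate 2 the estimate was 2.75, and without WT replicate 1 it was 0.99. Without KO replicate 1 the probe set was too dim to test. Ccl4 read 1082 and 428.6 in KO spleen, against 112.9 and 182.3 in WT spleen. Both KO values were above the floor and both WT values below it, at least 3.67-fold higher in KO spleen. It was too dim for the main comparison, and when every probe set was tested its limma p was 0.0496 before and 1 after adjustment. Ccr1, a receptor of Ccl3 on myeloid cells, read 549 and 751 in KO spleen, against 270.5 and 472.2 in WT spleen, without overlap (log2 0.85, SE 0.55, interval -0.43 to 2.12). It was 0.44 without WT replicate 1 and 1.25 without WT replicate 2, and without either KO array it was too dim to test.

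The other tested CC chemokines overlapped between genotypes. Ccl5, a T and NK cell chemokine, read 28459 and 24963 in KO spleen, against 47989 and 25347 in WT spleen, with WT replicate 1 alone high (log2 -0.39, SE 0.47). Without that array the estimate was 0.07. Ccl6 and Ccl9, macrophage chemokines of rodents, differed by -0.41 and 0.02. Ccl8 read 3397 and 1217 in KO spleen, against 2415 and 1354 in WT spleen, and its estimate of 0.17 was -0.57 without KO replicate 1. The neighbouring monocyte attractant Ccl12 gave 0.09, Ccl22, a dendritic cell product, -0.08, and the brighter Ccl1 probe set 0.31, with adjusted p from 0.992 to 0.997. The other Ccl1 probe set was too dim to test, at 217.7 and 73.7 in KO spleen, against 491.3 and 155.1 in WT spleen. Ccr3, the eosinophil receptor whose promoter window holds the core letters printed above, read 593.3 and 537.4 in KO spleen, against 591.4 and 291.6 in WT spleen (log2 0.44, SE 0.56). Without WT replicate 2 its estimate was -0.07, and without any other array it was too dim to test.

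**Figure D3:**
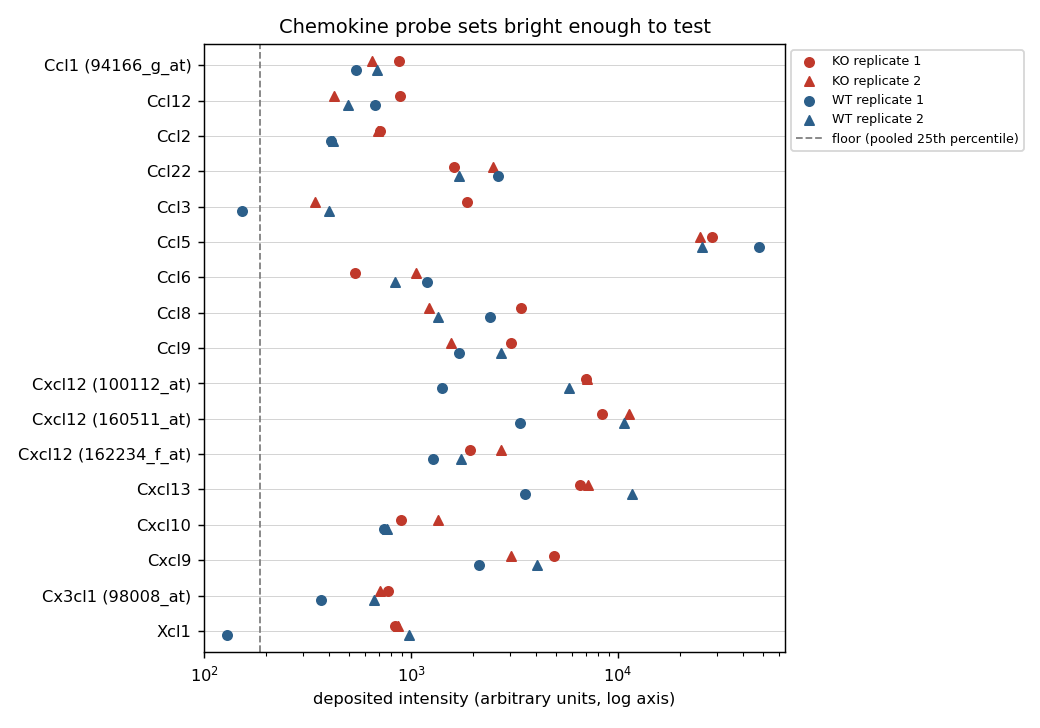
Deposited intensity (log axis) of the 17 tested chemokine probe sets, with KO arrays in red above WT arrays in blue, circles for replicate 1, triangles for replicate 2 and a dashed line at the floor of 185.5. WT replicate 1 is the lowest point for Cxcl12, Cxcl13, Xcl1 and Ccl3, and for Ccl2 both pairs lie close together.

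The interferon-induced chemokines, which attract activated T cells through Cxcr3, were both above background. Cxcl10, whose window holds the core letters, read 893.3 and 1349 in KO spleen, against 739.4 and 761.1 in WT spleen. The genotypes did not overlap, KO replicate 1 lying near the WT pair (log2 0.55, SE 0.45, interval -0.49 to 1.59, adjusted p = 0.992). The estimate was 0.85 without KO replicate 1 and 0.25 without KO replicate 2. Cxcl9 read 4878 and 3030 in KO spleen, against 2137 and 4060 in WT spleen, with overlap (log2 0.38, SE 0.48), and its estimate was -0.08 without WT replicate 1. Cxcr3 read 5892 and 3307 in KO spleen, against 3350 and 3675 in WT spleen, so only KO replicate 1 stood above the WT arrays (log2 0.33, SE 0.44). It was -0.09 without KO replicate 1.

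Xcl1, made by NK and CD8 T cells to attract cross-presenting dendritic cells, read 839.5 and 861.5 in KO spleen, against 129.5 and 973.8 in WT spleen. The other arrays were alike and WT replicate 1 was under the floor (SE 0.76, interval -0.77 to 2.77, adjusted p = 0.992), and without that array the estimate was -0.20. Cx3cl1, a membrane-bound chemokine, read 775.2 and 707.8 in KO spleen, against 368.2 and 664.8 in WT spleen, without overlap (log2 0.58, SE 0.52, and 0.16 without WT replicate 1). A further Cx3cl1 probe set, too dim to test, read 513 and 72.2, against 114.5 and 134. Its receptor Cx3cr1, a marker of monocytes and resident macrophages, read 1081 and 1369 in KO spleen, against 1203 and 1705 in WT spleen (log2 -0.24, SE 0.42). NK cell markers measured higher in 3 and lower in 2 of 5 tested genes, with sums of 5708 and 6624 in KO spleen, against 5538 and 7843 in WT spleen. Of the remaining marker lists, dendritic cell genes measured higher in 5 and lower in 1, platelet genes higher in 5 of 5, erythroid genes lower in 9 of 9 and exocrine pancreas genes lower in 7 of 8 (medians 0.14, 0.37, -0.61 and -1.82), none of them past the adjusted threshold. The mean log2 over the erythroid list was 11.6 and 13.7 in KO spleen, against 13.5 and 13.5 in WT spleen. Only KO replicate 1 was low there. Genotypes did not overlap in 1 of the 9 erythroid and 2 of the 5 platelet genes. Platelet sums were 22744 and 19809 in KO spleen, against 26332 and 8818 in WT spleen. The part of these marker genes in the members' values was not tested.

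**Figure D4:**
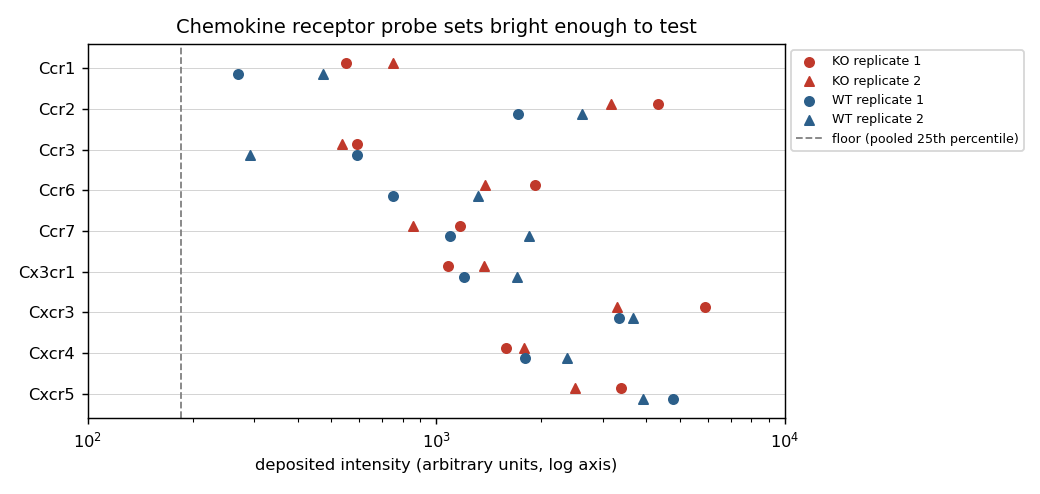
Deposited intensity (log axis) of the 9 tested receptor probe sets, with KO arrays in red above WT arrays in blue, circles for replicate 1, triangles for replicate 2 and a dashed line at the floor of 185.5. KO and WT points do not overlap for Ccr1, Ccr2 and Ccr6 (KO higher) and for Cxcr4 and Cxcr5 (KO lower).

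How far the 2 WT arrays set these values was described member by member. WT replicate 1 was the lowest of the 4 arrays in 14 of 26 tested members (53.8%, against 39.2% of all tested) and the highest in 4 (15.4%, against 37.3%). KO replicate 1 was the highest in 12 (46.2%, against 20.8%). The median gap between replicates was 1.36-fold in the KO pair and 1.63-fold in the WT pair for members, against 1.23-fold and 1.56-fold over all tested. More than 2-fold apart were 3 members in the KO pair (Ccl3, Ccl8 and Ccl12) and 6 in the WT pair. With the KO mean set against each WT array alone, 17 members measured higher than WT replicate 1 and 16 higher than WT replicate 2. In the fits without WT replicate 2 and without WT replicate 1, 50.2% and 50.8% of all tested probe sets measured higher. These comparisons share the KO arrays.

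**Figure D5:**
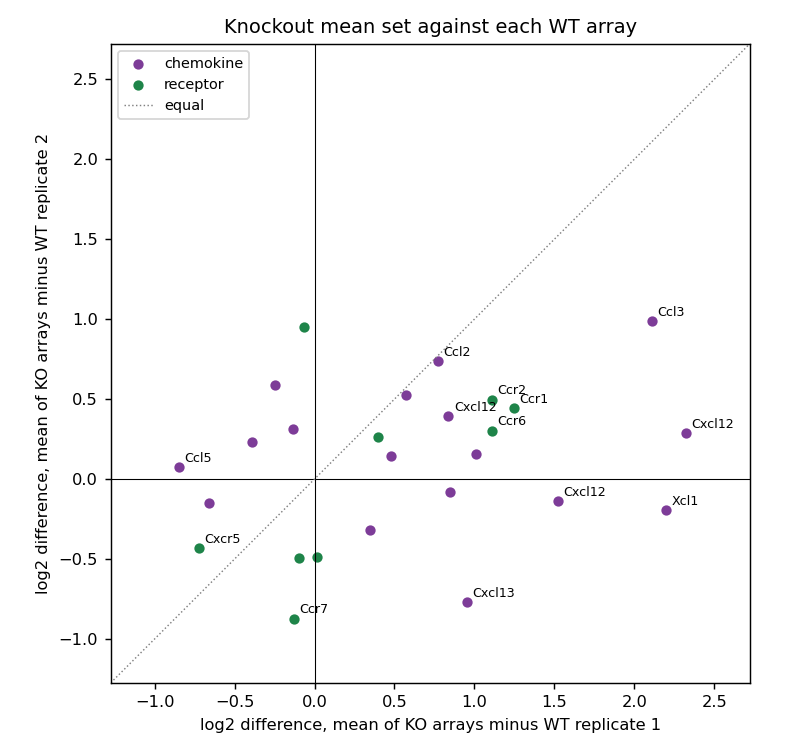
Log2 difference between the mean of the KO arrays and WT replicate 1 (horizontal axis) or WT replicate 2 (vertical axis) for the 26 tested member probe sets, chemokines in purple and receptors in green, with a dotted line where both are equal. Both axes share the KO arrays. Ccl2 lies near the dotted line, while Cxcl12, Xcl1 and Cxcl13 lie far to its right.

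A list of 61 genes held other parts of chemokine signalling and related genes. Among them were atypical receptors, G proteins, receptor kinases, RGS proteins, regulators of cell movement and receptors of other attractants such as Fpr2. Of the 61, 43 were measured and 38 tested. None passed the adjusted threshold, and 1 had an unadjusted p under 0.05. Of the 38, 26 measured higher and 12 lower (median 0.20), against 53.7% of all tested probe sets higher. Every KO value lay above every WT value for 12 of the 38 and below for 3, against 14.3% and 12.2% of all tested. Over the 43 measured genes the mean log2 was 11.52 and 11.45 in KO spleen, against 11.14 and 11.45 in WT spleen. Only WT replicate 1 was low, and the counts for this list were not repeated without that array. Fpr2, a formyl peptide receptor of phagocytes, read 4069 and 1793 in KO spleen, against 586.8 and 1560 in WT spleen (log2 1.497, SE 0.60, limma adjusted p = 0.992). It was 0.79 without WT replicate 1. The Rac activator Tiam1 differed by 1.12, the adhesion adaptor Pxn by 0.79, the GTPase Rhoa by 0.86, and the kinases Ptk2b and Fgr by 0.67 and 0.68. Each had KO values above all WT values and an adjusted p of 0.992. Without WT replicate 1 the estimates were 0.40 for Tiam1, 0.33 for Rhoa and 0.36 for Fgr.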

How the data were processed

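Each of the 4 arrays has a column of deposited intensity values, linear and of 1 colour, 1 value a probe set. What software and scaling the authors applied is not given in the sources used here. Trimmed means (2% from each end) lay within 10% of each other (2483 to 2494), so the deposited intensities were used without further scaling. After leaving out 66 control probe sets, values below the pooled 25th percentile (185.5) were raised to it and log2 was taken, which understates differences of dim genes. The 7453 probe sets whose mean log2 value lay above the 40th percentile of means were tested with limma 3.58.1 in R 4.3.3 (lmFit, eBayes with an intensity trend), two-sided, with Benjamini-Hochberg adjustment. Symbols came from the platform annotation: 10833 probe sets had 1 symbol, 396 several and 1193 none. A listed gene was read on its brightest probe set. The fit was tested on simulated data.

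By the naming rule every member could be named. Full statistics were due for members without overlap and with an unadjusted p under 0.05, which none met, and for Cxcl12, Cxcl13, Ccl19, the Ccl21 family, Cxcr4, Cxcr5, Ccr7, Ccr2, Cxcr2, Cx3cr1, Ccl5 and Cxcl9 where tested. The 6 pathway genes with the smallest p were named. The fuller statistics of Ccl2, Ccl3, Ccl4, Cxcl10, Xcl1, Cx3cl1, Ccr1 and Ccr6 were chosen after their values were seen. The members, lists and tests were chosen with earlier results of these data known. The replicate numbers did not pair the samples: deviations within the genotypes correlated at 0.04, and the labels state no pairing. Alternatives varied scaling, floor, filter, variance model, replicate block, arrays and cross-hybridising probe sets. Figures used matplotlib 3.10.9 in Python 3.11.15.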

Additional observations from a re-analysis of the deposited data

How the results depend on the processing

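No member passed the adjusted threshold under any alternative, and none of the pathway genes did. In the fits with 1 array left out, the lowest adjusted p of a member was 0.0582, for Cxcl12 without WT replicate 2. With the replicate number as a block, which the labels do not support as a pairing, 36 probe sets passed over all and no member did, with the lowest member adjusted p at 0.568 (Cxcl12). The count of 4 over all probe sets was 0 without the filter (12422 tested), 2 without cross-hybridising probe sets, 7 at an adjusted p of 0.10, and 3 to 13 with 1 array left out. Nfe2l2 kept -4.61 without the filter, with an adjusted p of 0.713, and ran from -5.04 to -4.17 with 1 array left out, where it missed the threshold without WT replicate 1 (adjusted p = 0.0994) and without WT replicate 2 (adjusted p = 0.0582). Of 265 member values under the 11 other alternatives, 4 changed sign, all under a change of scaling. Cxcl13 was -0.0031 with quantile normalization. Ccl9 was -0.0599 with quantile normalization, -0.0428 with median scaling and -0.0552 with cyclic loess, and the cause was not tested. Changing the filter, intensity trend, array weights or replicate block left each difference as it was, so no sign could change there. With 1 array left out, where a lone array is assumed to vary like the others, 13 of 26 members changed sign in some fit. Their differences ran from -0.0786 to 0.85 for Cxcl9, -0.77 to 0.95 for Cxcl13, -0.40 to 0.24 for Ccl22, -0.20 to 2.16 for Xcl1, -0.46 to 0.49 for Ccl9, -0.14 to 1.52 for the second Cxcl12 probe set, -0.57 to 0.91 for Ccl8, -0.89 to 0.0784 for Ccl6, -0.44 to 0.62 for Ccl12, -0.0854 to 0.75 for Cxcr3, -0.49 to 0.016 for Cx3cr1 and -0.85 to 0.0725 for Ccl5. Ccr3 could be tested in 1 such fit, at -0.0668. The Ccl21 family probe set ran from -0.19 to 0.64. With 1 array left out, the count measuring higher was 14 to 18 of 23 to 27 (60.0% to 72.0%, against 50.2% to 55.0% of all tested). It was 9 of 13 with the filter at the 60th percentile (69.2%, against 53.5%). The count with every KO value above every WT value was 8 to 15 with 1 array left out (27.8% to 42.4% of all tested), and 3 of 13 with that filter (13.9% of all). Every KO value was below every WT value for 8 without KO replicate 1, 6 without WT replicate 1 and 5 without either other array (25.8% to 40.5% of all tested). With 1 array left out, 25 to 29 members were above the floor in all remaining arrays, and 41 were at the 10th percentile. These counts of direction and of separation were added after seeing the data.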

Other observations

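The Ccr7 ligands are outside the members because their probe sets carry several symbols. The values that follow were picked after they were seen. A probe set is assigned to 10 symbols, those of Ccl19, which draws Ccr7-bearing cells to the T cell zone, of Ccl19-ps1 and of 8 further symbols, which cannot be told apart. It read 6186 and 4588 in KO spleen, against 14459 and 11257 in WT spleen, all KO values lying below all WT values (log2 -1.26, SE 0.41, interval -2.22 to -0.30, limma adjusted p = 0.992). Leaving out any 1 array gave values from -1.48 to -1.04. Another probe set, assigned to 9 symbols, among them those of the Ccl21 genes, which encode the other Ccr7 ligand, read 22929 and 12915 in KO spleen, against 18279 and 11871 in WT spleen, with overlap (log2 0.22, SE 0.48). Its estimate turned to -0.19 without KO replicate 1 and to -0.09 without WT replicate 2. A further probe set, assigned to 5 symbols, among them Ccl27a and Ccl27b, skin chemokines, read 279.4 and 293.8 in KO spleen, against 1039 and 589.9 in WT spleen, without overlap (log2 -1.45, SE 0.54, limma adjusted p = 0.992). With the floor at the 40th percentile its difference was -0.71. Another probe set of those 5 symbols, too dim to test, read 341.4 and 21.1 in KO spleen, against 706.4 and 402.3 in WT spleen.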
